A study of Mus musculus with 16 samples.

Results

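SR proteins and hnRNPs are the abundant nuclear proteins that bind pre-mRNA and decide which splice sites are used. The genes described here are those of the SR proteins (Srsf), the related Tra2 proteins, the heterogeneous nuclear ribonucleoproteins (Hnrnp), and the Ptbp, Rbfox, Celf and Nova regulators. They were chosen by a rule on the gene symbol, with earlier results of these data known, and 48 of the 39017 gene rows matched. Of these, 47 carried an adjusted p-value in all 3 comparisons. The remaining row, the pseudogene Hnrnpa1l2-ps, had a mean normalized count of 0.492 for PL-BLA and 0 for the other projections in the authors' deposited tables, and was not tested.

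C57BL/6J mice gave samples of prelimbic cortex (PL), in which RNA on tagged polysomes was set against total RNA by sequencing. The virus AAV-IV-GFPL10, which carries a GFP-tagged ribosomal protein, was put into PL, and CAV-Cre, which enters axon terminals and delivers Cre to the cell body, was put into 1 of 3 targets, namely NAc (nucleus accumbens), BLA (basolateral amygdala) or VTA (ventral tegmental area). The immunoprecipitate (IP) is RNA recovered on anti-GFP beads from PL neurons reached from that target, and the Input is total RNA of the tissue around them. There were 3 IP and 3 Input samples for PL-NAc, 3 and 3 for PL-BLA, and 2 and 2 for PL-VTA, which makes 16 samples in 6 groups. All groups received both viruses, and no genotype or untreated group is among the labels. The tagged cells are defined by viral uptake and not by a promoter, and the labels do not say whether a sample is 1 animal or a pool. P-values therefore measure the spread between these samples only, and that spread may be technical.

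SR proteins bind exonic sequences through their RNA recognition motifs and recruit the splicing machinery through domains rich in arginine and serine, which often favours inclusion of the exon. Many hnRNPs repress splice sites, and in neurons the replacement of PTBP1 by its neuronal paralog PTBP2, together with the Rbfox, Nova and Celf families, shapes neuronal splicing. Many of these genes limit their own level by splicing a poison exon into their mRNA, which sends the transcript to nonsense-mediated decay (NMD).

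The values used were 1 comparison table for each projection, and no per-library values were used here. Mean normalized counts in the authors' deposited tables added up to 15.4 (PL-NAc), 16.3 (PL-BLA) and 16.5 (PL-VTA) in units of 1e6 reads. For genes whose mean was 50 or more, the standard error (SE) of the log2 fold change had a median of 0.124, 0.129 and 0.219 in that order in the authors' deposited tables, so that PL-VTA resolved only larger differences. The headers do not name the direction, which was read as IP over Input from the negative sign of glial and mitochondrial transcripts. The fall of glial markers follows from that reading and is not a result. By it, 10 of 10 oligodendrocyte markers were lower in the IP of each projection in the authors' deposited tables, with medians of -2.94, -2.31 and -2.49, and none of those markers was at 0. Excitatory neuron markers were higher for 9 of 10 genes in PL-NAc and in PL-BLA in the authors' deposited tables, and in PL-VTA 2 were higher and 3 lower. Nuclear noncoding RNAs were lower for 6 of 7 tested genes in each projection in the authors' deposited tables, with medians of -3.47, -3.24 and -2.84. In such bulk comparisons, fewer cells of a type and less RNA per cell cannot be told apart.

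Averaged over IP and Input, the tested splicing factors had mean normalized counts between 52.5 for Hnrnpa1 and 14910.5 for Celf4 in the authors' deposited tables. Per kilobase of annotated exon, the mean normalized count of the authors' deposited tables, averaged over the 3 projections, was highest for Celf4 at 1645. Rbfox1 followed at 1435, Rbfox3 at 1369, Hnrnpa2b1 at 1037 and Hnrnpab at 938 on the same per-kilobase scale of the authors' deposited means. The lowest per-kilobase levels were 15.8 for Ptbp3, 18.7 for Hnrnpa1, 24.9 for Hnrnpa3 and 42.4 for Nova1, also from the authors' deposited means. These levels average IP and Input, since the tables give 1 mean a gene, and no spread over samples can be set beside them.

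The first comparison asked which of these transcripts were over- or under-represented on tagged polysomes relative to the tissue, in neurons reached from NAc. In PL-NAc, 19 of the 47 genes were higher in the IP and 8 were lower in the authors' deposited table (adjusted p under 0.05), which is 57.4% of them. Over all genes tested the background was 43.1% called, 21.4% higher and 21.7% lower. Among genes with a mean of at least 50, a level that every tested splicing factor reached in each table, it was 55%, 31% and 24%. The share called was therefore near that of genes above this minimum, which does not match the splicing factors for abundance. The splicing factors had a median log2 fold change of 0.10 in the authors' deposited table, against 0.06 for genes with a mean of at least 50. Centred on that median, the split became 15 higher and 11 lower.

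In PL-BLA, 11 genes were higher and 8 lower in the authors' deposited table, which is 40.4% of the 47. The background was 41% called, 20.8% higher and 20.2% lower over all genes tested, and 51.9%, 29.2% and 22.8% among genes with a mean of at least 50. The median log2 fold change of the splicing factors was 0.07 in the authors' deposited table, beside 0.06 for the abundant genes. Centred, the split was 9 higher and 10 lower.

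In PL-VTA, 8 genes were higher and 0 lower in the authors' deposited table, which is 17.0% of the 47. The background was 21.5% called, 11% higher and 10.5% lower over all genes tested, and 25.5%, 13.7% and 11.8% among genes with a mean of at least 50. The median was 0.12 in the authors' deposited table, beside 0.06 for the abundant genes. At an unadjusted p under 0.05 by the authors' DESeq2 test, 3 were lower in the authors' deposited table, namely Hnrnpl, Nova1 and Ptbp1. Centred, 5 genes were higher and 1, Hnrnpl, was lower.

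The differences were small in each projection. A change of at least 2-fold was reached by 0 of 47 genes in PL-NAc, by Ptbp3 alone in PL-BLA and by Celf6 alone in PL-VTA in the authors' deposited tables, whereas 12.4%, 10.8% and 8.54% of all tested genes reached it. Among genes with a mean of at least 50, 1269 of 12061, 1195 of 12228 and 1058 of 12314 reached it. The median size of the log2 fold change, sign left aside, was 0.296, 0.189 and 0.241 for the splicing factors in the authors' deposited tables. Over all tested genes it was 0.359, 0.343 and 0.314 in the authors' deposited tables. Among genes with a mean of at least 50 it was 0.338, 0.327 and 0.308.

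Across the projections, 7 of the 47 genes were higher in all 3 IPs in the authors' deposited tables, which is 14.9%. The background of genes called higher in all 3 was 8.76% over all genes tested and 11.3% among genes with a mean of at least 50 in each table. They were Celf4, Celf6, Hnrnpa2b1, Hnrnpab, Hnrnph2, Hnrnpk and Srsf2. Centring on the median left 5 of them. Celf4 (adjusted p = 0.0615) and Hnrnpk (adjusted p = 0.0528) were no longer called in PL-VTA by the authors' DESeq2 values after centring. Both were also lost there at an adjusted p under 0.01. A minimum of 1.5-fold left Celf6 alone. Keeping only genes with under 10% of their 50-base words in other genes left Celf4, Celf6 and Hnrnpa2b1. Hnrnpab, Hnrnph2, Hnrnpk and Srsf2 were left out by that rule and did not lose their calls. None of the 47 was lower in all 3, where the background was 8.64% over all genes and 9.64% among the abundant ones, and centring put 1 gene, Hnrnpl, there. None was called in opposite directions. Another 5 genes (10.6%) were higher in 2 projections, namely Celf5, Hnrnpr, Nova2, Ptbp2 and Rbfox2, against 14.1% of abundant genes. Lower in 2 were 6 genes (12.8%), namely Celf2, Hnrnpl, Nova1, Ptbp1, Ptbp3 and Srsf4, against 10.2%. A further 7 (14.9%) were higher in 1 projection against 10.9%, 4 (8.51%) were lower in 1 against 7.87%, and 18 (38.3%) passed in none against 34.9%. These shares lay near the background, except that none was lower in all 3 against 9.64%, a gap that was not tested.

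Among the 11 SR proteins, 4 were higher and 1 lower in PL-NAc, 1 higher and 2 lower in PL-BLA, and 1 higher and 0 lower in PL-VTA in the authors' deposited tables. As shares, 36.4%, 9.09% and 9.09% were higher and 9.09%, 18.2% and 0% lower. Among genes with a mean of at least 50, 31%, 29.2% and 13.7% were higher and 24%, 22.8% and 11.8% lower. Srsf2, which binds exonic enhancers and is found in nuclear speckles, was the SR gene called in all 3. The authors' deposited tables gave it log2 fold changes of 0.30 (SE 0.08, adjusted p = 5.7e-04), 0.46 (SE 0.09, adjusted p = 2.7e-06) and 0.50 (SE 0.16, adjusted p = 0.00952), with PL-NAc first, PL-BLA second and PL-VTA last. Srsf2 lies on chromosome 11 between 116849901 and 116853094, minus strand, in GRCm38, and exons of Mettl23 and Mfsd11 overlap 25.3% of its exonic bases. Because the strand setting of the counting is not given in the sources used here, reads there cannot be assigned to Srsf2 with certainty.

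Srsf7 and Srsf3, closely related small SR proteins that also couple splicing to mRNA export, were higher in PL-NAc. The log2 fold change of Srsf7 in the authors' deposited tables was 0.36 (SE 0.07, adjusted p = 1.6e-06) in PL-NAc, with 0.10 (SE 0.09) in PL-BLA and 0.34 (SE 0.14) in PL-VTA, which were not called. For Srsf3 the authors' deposited tables gave 0.30 (SE 0.07, adjusted p = 6.5e-05) in PL-NAc, and 0.12 (SE 0.09) and 0.30 (SE 0.14) in the other projections, not called. Srsf11, an SR protein of neuronal microexon regulation, was higher in PL-NAc at 0.24 (SE 0.08, adjusted p = 0.00801) in the authors' deposited table, a call that centring ended. Its values in PL-BLA and PL-VTA, 0.19 (SE 0.10) and 0.12 (SE 0.16) in the authors' deposited tables, were not called.

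Srsf4, a large SR protein, was lower in PL-NAc at -0.37 (SE 0.14, adjusted p = 0.0183) and in PL-BLA at -0.46 (SE 0.15, adjusted p = 0.00488) in the authors' deposited tables. In PL-VTA its value in the authors' deposited table was -0.32 (SE 0.24) and was not called. The gene model Gm12992 overlaps 43.0% of the exonic bases of Srsf4, and 65.4% of its 50-base words occur in another gene, so its counts are uncertain. Words of an overlapping gene are counted in that share, so these figures may describe the same bases. Srsf9 was called lower in PL-BLA, at -0.22 (SE 0.09, adjusted p = 0.0407) in the authors' deposited table, and that call was lost when p-values were adjusted over every gene with a p-value. Its PL-NAc and PL-VTA values in the authors' deposited tables were -0.17 (SE 0.09), called only after centring, and -0.00 (SE 0.16). The founding SR gene Srsf1 and the splicing repressor Srsf10 had log2 fold changes between -0.09 and 0.03 in the 3 authors' deposited tables, and were not called. Srsf5 (0.09 to 0.26), Srsf6 (0.07 to 0.24) and Srsf12 (-0.14 to 0.10) were likewise not called in the authors' deposited tables. Of the Tra2 pair, activators that bind GAA-rich exonic enhancers, Tra2a was higher in PL-NAc at 0.32 (SE 0.12, adjusted p = 0.0218) in the authors' deposited table, a call that ended with centring and at an adjusted p under 0.01. Its other values in the authors' deposited tables were 0.09 (SE 0.16) in PL-BLA and -0.14 (SE 0.23) in PL-VTA, and Tra2b was not called in any projection.

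**Figure D1:**
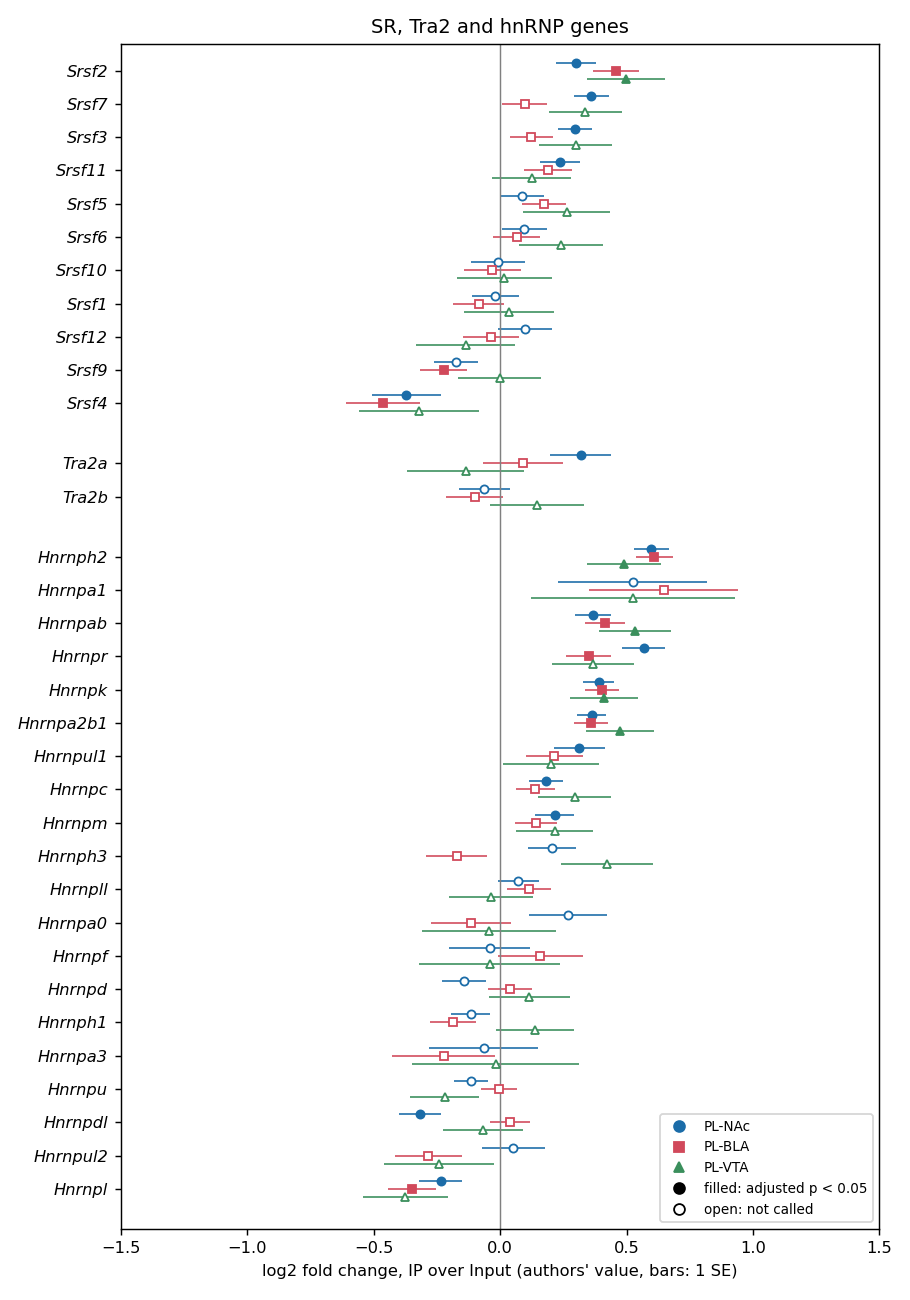
Log2 fold change of IP over Input (x axis) for each SR, Tra2 and hnRNP gene (y axis) in PL-NAc, PL-BLA and PL-VTA. Points are the authors' values, bars are 1 SE and filled points passed an adjusted p under 0.05. Hnrnph2, Hnrnpab, Hnrnpk, Hnrnpa2b1 and Srsf2 are filled to the right of 0 in all 3 projections, and the bars of PL-VTA are the widest for most genes.

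Of the 20 hnRNP genes tested, 8 were higher and 2 lower in PL-NAc, 5 higher and 1 lower in PL-BLA, and 4 higher and 0 lower in PL-VTA in the authors' deposited tables. The 4 called in all 3 were Hnrnph2, Hnrnpab, Hnrnpk and Hnrnpa2b1. Hnrnph2, an X-linked paralog of Hnrnph1 whose product binds G-rich sequences, had log2 fold changes in the authors' deposited tables of 0.60 (SE 0.07, adjusted p = 6.7e-17), 0.61 (SE 0.07, adjusted p = 2.3e-15) and 0.49 (SE 0.15, adjusted p = 0.00664) in PL-NAc, PL-BLA and PL-VTA. This is 1.51-fold, 1.53-fold and 1.40-fold from the authors' deposited values. Hnrnph1 was not called in any of them, with values in the authors' deposited tables of -0.12 (SE 0.08), -0.19 (SE 0.09) and 0.14 (SE 0.15).

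The coding sequences of Hnrnph1 and Hnrnph2 are identical at 1151 of 1347 aligned bases, or 85.4%, and the longest identical run is 34 bases. The stretches below are bases 1008 to 1097 of each coding sequence (GENCODE M21 on GRCm38, chromosome 11 plus strand and chromosome X plus strand). They are centred on that run and show how far a short read can tell these paralogs apart there. Capitals mark the bases that differ, and 83 of the 90 bases are the same.
Hnrnph1: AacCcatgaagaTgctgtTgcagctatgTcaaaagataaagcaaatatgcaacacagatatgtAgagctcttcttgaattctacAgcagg
Hnrnph2: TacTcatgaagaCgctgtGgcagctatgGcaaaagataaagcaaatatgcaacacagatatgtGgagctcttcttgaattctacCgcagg
No run of 50 bases is shared between these 2 coding sequences, since the longest run is shorter. The 50-base words were taken from a representative transcript of each gene, that with the longest coding sequence. Of these words, 18.2% in Hnrnph2 and 5.34% in Hnrnph1 occur in another annotated gene. For every gene, a word also counted where the other gene overlaps it at the same locus, on either strand.

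Hnrnpa2b1 encodes the A2 and B1 proteins, which bind RNA transport signals in dendrites as well as pre-mRNA. Its log2 fold changes in the authors' deposited tables were 0.36 (SE 0.06, adjusted p = 5.2e-09), 0.36 (SE 0.07, adjusted p = 7.3e-07) and 0.47 (SE 0.13, adjusted p = 0.00356) in PL-NAc, PL-BLA and PL-VTA. Hnrnpab, also named CBF-A and a factor in dendritic RNA transport, had 0.37 (SE 0.07, adjusted p = 8.6e-07), 0.41 (SE 0.08, adjusted p = 1.2e-06) and 0.53 (SE 0.14, adjusted p = 0.00169) in the authors' deposited tables. Hnrnpk, which binds C-rich sequences through KH domains, had 0.39 (SE 0.06, adjusted p = 1.7e-09), 0.40 (SE 0.07, adjusted p = 2.5e-08) and 0.41 (SE 0.14, adjusted p = 0.0155) in the authors' deposited tables. These 3 genes stood at 1.28-fold to 1.45-fold in each projection by the authors' deposited values. Of the 50-base words of Hnrnpk 37.8% occur in other genes, 2 of them pseudogenes, and exons of Phykpl overlap 29.1% of the exonic bases of Hnrnpab.

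Both Hnrnpab and Hnrnpa2b1 were higher in every projection and had high levels per kilobase, and their promoters are shown as 2 examples of genes with those features. The 250 bases before each start are given 5′ to 3′ on the gene's strand, from RefSeq on GRCm38.p6, at chr11:51606882-51607131 for Hnrnpab and chr6:51469895-51470144 for Hnrnpa2b1, both on the minus strand. Capitals mark matches to GGGCGG (the GC box) or CCAAT on either strand.
Hnrnpab: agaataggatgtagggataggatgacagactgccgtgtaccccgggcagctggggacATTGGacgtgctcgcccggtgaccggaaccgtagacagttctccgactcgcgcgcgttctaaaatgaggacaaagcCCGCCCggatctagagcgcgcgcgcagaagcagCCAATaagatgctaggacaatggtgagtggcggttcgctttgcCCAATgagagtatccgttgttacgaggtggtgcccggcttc
Hnrnpa2b1: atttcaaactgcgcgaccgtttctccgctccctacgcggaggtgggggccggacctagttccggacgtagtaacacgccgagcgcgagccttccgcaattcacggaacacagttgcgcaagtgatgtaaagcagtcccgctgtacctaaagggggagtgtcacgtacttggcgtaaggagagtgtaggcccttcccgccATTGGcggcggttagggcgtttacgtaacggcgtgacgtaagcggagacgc
The Hnrnpab window holds 1 GC box, 3 CCAAT matches and 23 CpG dinucleotides at 58.4% G and C. The Hnrnpa2b1 window holds 0 GC boxes, 1 CCAAT match and 29 CpG dinucleotides at 59.6%. Neither window holds TATAAA.

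The RefSeq promoter table matched 42 of the 48 symbols, with 70 promoter windows. Of these windows 67.1% held GGGCGG, against 32.7% of all 32851 windows. CCAAT stood in 41.4% against 33.8%, and TATAAA in 8.57% against 12.4%, each counted on both strands, and the motifs do not overlap in sequence. The median number of CpG dinucleotides was 19 in the splicing factor windows and 6 in all windows, at a median G and C content of 62.6% against 52.4%. A match to these letters is a description of the window. The full set of windows was not limited by expression, whereas every tested splicing factor had a mean of at least 50. The contrast is therefore not matched for level.

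Other hnRNP genes were called in fewer projections. Hnrnpr, whose product acts in axonal mRNA transport, was higher in PL-NAc at 0.57 (SE 0.09, adjusted p = 2.4e-10) and in PL-BLA at 0.35 (SE 0.09, adjusted p = 4.2e-04) in the authors' deposited tables. Its PL-VTA value in the authors' deposited table was 0.37 (SE 0.16, adjusted p = 0.0910) and was not called. Hnrnpl, a binder of CA repeats, was lower in PL-NAc at -0.23 (SE 0.09, adjusted p = 0.0158) and in PL-BLA at -0.35 (SE 0.09, adjusted p = 9.5e-04) in the authors' deposited tables, with -0.37 (SE 0.17, adjusted p = 0.102) in PL-VTA. Its paralog Hnrnpll had values between -0.04 and 0.11 in the authors' deposited tables and was not called.

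Hnrnpc, whose product binds uridine-rich sequence and keeps Alu-derived exons out of mRNA in human cells, Hnrnpm and Hnrnpul1 were called higher in PL-NAc and in no other projection. The PL-NAc values were 0.18 (SE 0.07), 0.22 (SE 0.08) and 0.31 (SE 0.10) for these genes in the authors' deposited table, and centring ended the calls of Hnrnpc and Hnrnpm. Their values elsewhere in the authors' deposited tables were of like size, with 0.14, 0.14 and 0.21 in PL-BLA and 0.29, 0.22 and 0.20 in PL-VTA. Hnrnpdl, a paralog of Hnrnpd, was lower in PL-NAc at -0.32 (SE 0.08, adjusted p = 6.4e-04) in the authors' deposited table, and Hnrnpd was not called. Hnrnpu, a scaffold protein that binds chromatin-associated RNA, had values of -0.12 (SE 0.07), -0.00 (SE 0.07) and -0.22 (SE 0.14) in the authors' deposited tables and was not called. Also not called were Hnrnph3, a shorter relative of Hnrnph1, with values from -0.17 to 0.42, and Hnrnpa0, with values from -0.11 to 0.27, in the authors' deposited tables. Hnrnpul2 (-0.28 to 0.05), Hnrnpd (-0.14 to 0.12) and Hnrnpf (-0.04 to 0.16) were not called in the authors' deposited tables.

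Hnrnpa1 and Hnrnpa3, abundant splicing repressors in most cells, were poorly measured here. Hnrnpa1 had a mean normalized count of 52.5, 61.4 and 63.4 in the authors' deposited tables, with log2 fold changes of 0.53 (SE 0.29), 0.65 (SE 0.29) and 0.53 (SE 0.40) that were not called. Of its 50-base words 46.4% occur in other genes, 18 of which are annotated pseudogenes. For Hnrnpa3 that share was 91.0% with 41 pseudogenes, and for Hnrnpf it was 67.3% with 7. Reads shared with such copies can be dropped or counted in either place, and the setting used is not given in the sources used here.

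Among called genes, the largest values in both directions belonged to the 14 genes of the Ptbp, Rbfox, Celf and Nova families. Of the 3 PTB genes, Ptbp2 was higher in PL-NAc and PL-BLA, while Ptbp1 and Ptbp3 were lower in both. Ptbp1, the PTB protein of non-neuronal cells and progenitors, had log2 fold changes in the authors' deposited tables of -0.95 (SE 0.18, adjusted p = 5.1e-07) in PL-NAc, -0.85 (SE 0.18, adjusted p = 1.3e-05) in PL-BLA and -0.59 (SE 0.29, adjusted p = 0.136) in PL-VTA. In the IP it therefore stood at 51.9% and 55.4% of Input in PL-NAc and PL-BLA by the authors' deposited values. Ptbp2, the neuronal PTB protein, had 0.50 (SE 0.09, adjusted p = 9.8e-07), 0.61 (SE 0.09, adjusted p = 2.4e-11) and 0.26 (SE 0.16, adjusted p = 0.285) in the authors' deposited tables. Ptbp3, whose product is known from blood-forming cells, had -0.55 (SE 0.23, adjusted p = 0.0405), -1.15 (SE 0.24, adjusted p = 8.3e-06) and -0.24 (SE 0.33, adjusted p = 0.690) in the authors' deposited tables. Its call in PL-NAc was lost when p-values were adjusted over every gene with a p-value.

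Per kilobase of exon, the mean over the 3 projections of the authors' deposited means was 159 for Ptbp2, 43.7 for Ptbp1 and 15.8 for Ptbp3. The Ptbp1 locus is crowded, with 20.7% of its exonic bases overlapped by E130317F20Rik, Gm17134 and Plppr3. Of its 50-base words 30.5% occur in another gene, and words of these overlapping genes are counted in that share. Ptbp2 shares no 50-base word with another gene.

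The coding sequences of Ptbp1 and Ptbp2 are compared because the values of these genes had opposite signs. They agree at 1116 of 1592 aligned bases, or 70.1%, with a longest identical run of 14 bases. The stretches below are centred on that run and do not stand for the whole. Shown are bases 757 to 846 of Ptbp1 (chromosome 10, plus strand) and 751 to 840 of Ptbp2 (chromosome 3, minus strand), from GENCODE M21 on GRCm38, with the differing bases in capitals and 68 of 90 bases the same.
Ptbp1: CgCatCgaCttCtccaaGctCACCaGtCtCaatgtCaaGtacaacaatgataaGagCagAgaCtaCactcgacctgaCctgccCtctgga
Ptbp2: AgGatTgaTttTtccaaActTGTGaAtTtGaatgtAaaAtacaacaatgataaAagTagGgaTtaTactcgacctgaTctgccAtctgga

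Markers of non-neuronal cells were lower in the same comparisons. For glial markers this follows from how the direction was read and is not a result. Astrocyte markers were lower for 10, 9 and 10 of 10 genes in PL-NAc, PL-BLA and PL-VTA, and microglial markers for 10, 10 and 9 of 10, in the authors' deposited tables. The median log2 fold change of the astrocyte markers was -2.11, -1.39 and -1.49 in the authors' deposited tables, and that of the microglial markers was -2.60, -2.05 and -1.95. Endothelial and mural markers were lower for 7, 8 and 4 of 10 genes in the authors' deposited tables. None of these markers was at 0. The part of those cells in the values of Ptbp1 and Ptbp3 was not tested.

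**Figure D2:**
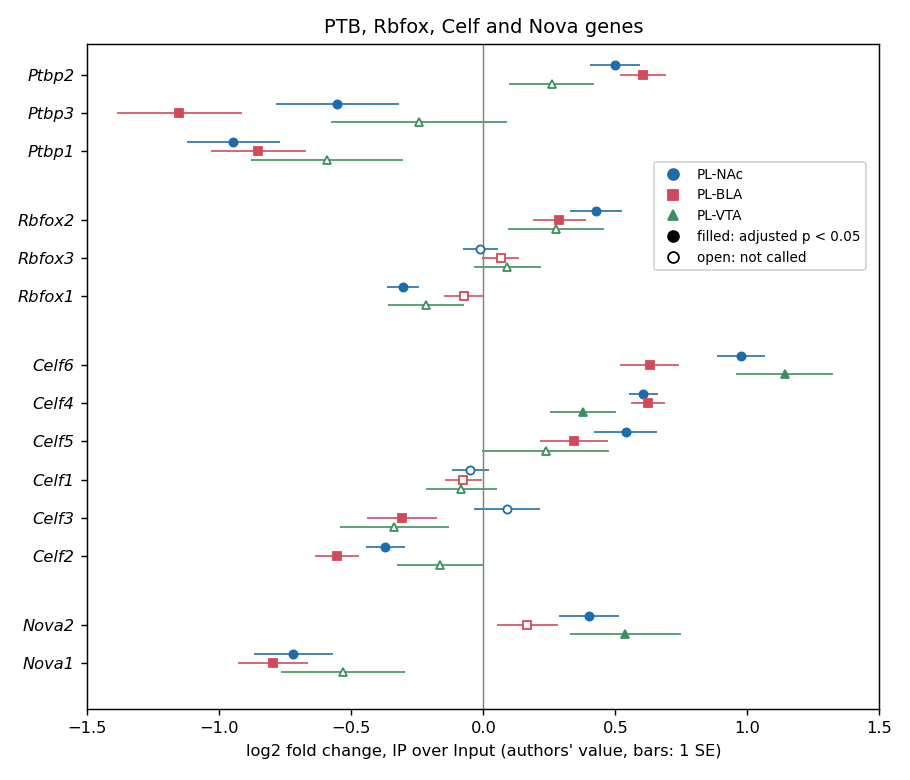
Log2 fold change of IP over Input (x axis) for each Ptbp, Rbfox, Celf and Nova gene (y axis) in the 3 projections, with bars of 1 SE and filled points for an adjusted p under 0.05. Ptbp2, Celf4 to Celf6, Rbfox2 and Nova2 lie to the right of 0 in each projection, and Ptbp1, Ptbp3, Celf2 and Nova1 to the left.

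Of the 6 Celf genes, 3 were higher and 1 lower in PL-NAc, 3 higher and 2 lower in PL-BLA, and 2 higher and 0 lower in PL-VTA in the authors' deposited tables. Celf6, a regulator of splicing and mRNA stability found mainly in brain, had the highest value of the 47 genes in PL-NAc and PL-VTA. Its log2 fold changes in the authors' deposited tables were 0.97 (SE 0.09, adjusted p = 2.7e-25), 0.63 (SE 0.11, adjusted p = 1.5e-07) and 1.14 (SE 0.18, adjusted p = 2.0e-08) in PL-NAc, PL-BLA and PL-VTA. These are 1.96-fold, 1.55-fold and 2.20-fold by the authors' deposited values. Celf4, a neuronal member that binds synaptic mRNAs in cytoplasm and nucleus, had 0.61 (SE 0.05, adjusted p = 6.2e-28), 0.62 (SE 0.06, adjusted p = 1.1e-20) and 0.38 (SE 0.13, adjusted p = 0.0169) in the authors' deposited tables. Celf5 was higher in PL-NAc at 0.54 (SE 0.12, adjusted p = 2.8e-05) and in PL-BLA at 0.34 (SE 0.13, adjusted p = 0.0227) in the authors' deposited tables, and in PL-VTA it had 0.24 (SE 0.24) and was not called. The PL-BLA call of Celf5 ended with centring and at an adjusted p under 0.01.

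None of the other 3 Celf genes was called higher. Celf1, a ubiquitous regulator of splicing and mRNA decay, had values of -0.05 (SE 0.07), -0.08 (SE 0.07) and -0.08 (SE 0.14) in the authors' deposited tables and was not called. Celf2 was lower in PL-NAc at -0.37 (SE 0.07, adjusted p = 2.2e-06) and in PL-BLA at -0.55 (SE 0.08, adjusted p = 4.1e-10) in the authors' deposited tables, with -0.16 (SE 0.16) in PL-VTA. Celf3, a neuronal member, was called lower in PL-BLA at -0.31 (SE 0.13, adjusted p = 0.0461) in the authors' deposited table, with 0.09 (SE 0.12) in PL-NAc and -0.34 (SE 0.21) in PL-VTA, not called. The PL-BLA call was lost when p-values were adjusted over every gene with a p-value.

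The Nova proteins bind YCAY clusters and regulate exons of synaptic genes. Nova1 was lower in PL-NAc at -0.72 (SE 0.15, adjusted p = 7.3e-06) and in PL-BLA at -0.80 (SE 0.13, adjusted p = 2.0e-08) in the authors' deposited tables, with -0.53 (SE 0.23, adjusted p = 0.0912) in PL-VTA. Nova2 had values of the other sign, at 0.40 (SE 0.11, adjusted p = 0.00138) in PL-NAc, 0.17 (SE 0.12, adjusted p = 0.258) in PL-BLA and 0.54 (SE 0.21, adjusted p = 0.0496) in PL-VTA in the authors' deposited tables. In mouse, NOVA2 is the main Nova protein of the neocortex, and NOVA1 that of the hindbrain and spinal cord. Inhibitory neuron markers were lower for 9, 10 and 8 of 10 genes in the authors' deposited tables, with medians of -1.56, -1.35 and -1.55, and their part in the value of Nova1 was not tested. The gene model Gm26821 overlaps 31.7% of the exonic bases of Nova2, and 30.8% of its 50-base words occur in other genes. Words of overlapping genes are counted in the latter share. The PL-VTA call of Nova2 was lost by centring and by adjusting over every gene with a p-value.

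The Rbfox proteins bind UGCAUG, and RBFOX3 is the neuronal marker NeuN. Rbfox2 was higher in PL-NAc at 0.43 (SE 0.10, adjusted p = 8.5e-05) and in PL-BLA at 0.29 (SE 0.10, adjusted p = 0.0130) in the authors' deposited tables, with 0.28 (SE 0.18) in PL-VTA, not called. The PL-BLA call ended with centring and at an adjusted p under 0.01. Rbfox1 was lower in PL-NAc at -0.30 (SE 0.06, adjusted p = 2.4e-06) in the authors' deposited table, with -0.07 (SE 0.07) in PL-BLA and -0.22 (SE 0.14) in PL-VTA. Rbfox3 had -0.01 (SE 0.07), 0.07 (SE 0.07) and 0.09 (SE 0.13) in the authors' deposited tables and was not called, while 9, 9 and 2 of 10 excitatory neuron markers were higher in PL-NAc, PL-BLA and PL-VTA, and 3 were lower in PL-VTA, in the authors' deposited tables.

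The last comparison within these genes asked whether a splicing factor was enriched differently in 1 projection than in another. The difference of the deposited log2 fold changes was tested for every gene, with Benjamini-Hochberg adjustment over all of them. None of the 47 genes passed an adjusted p under 0.05 for any of the 3 pairs. The background was 1.14% called for NAc minus BLA, 2.29% for NAc minus VTA and 3.05% for BLA minus VTA. At an unadjusted p under 0.05 this two-sided Wald test held 6, 0 and 4 of the 47 genes, and 6.98%, 7.89% and 8.18% of all genes.

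The lowest adjusted p of these tests was 0.139, for Hnrnpdl, whose log2 fold change was lower in PL-NAc than in PL-BLA by a difference of -0.36 (SE 0.12). Hnrnph3 had the lowest for PL-BLA against PL-VTA, with a difference of -0.59 (SE 0.22) at an adjusted p of 0.156. For Celf6 the difference was 0.34 (SE 0.14, adjusted p = 0.438) between PL-NAc and PL-BLA and -0.51 (SE 0.21, adjusted p = 0.317) between PL-BLA and PL-VTA. The widest difference was that of Ptbp3 between PL-BLA and PL-VTA, at -0.91 (SE 0.41, adjusted p = 0.418).

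A p above the threshold does not show equal enrichment, and the intervals describe differences of the deposited values. Those values appear shrunken toward 0, so the intervals do not bound differences of unshrunken values. The 95% interval of the difference lay within 2-fold in either direction for 46, 45 and 44 of the 47 genes, in the order of the pairs above. It lay within 1.5-fold for 36, 28 and 29 of them. Genes called in PL-NAc but not in PL-VTA, such as Ptbp1, Ptbp2 and Hnrnpr, are therefore not shown to differ between these projections. For Ptbp1 the difference between PL-NAc and PL-VTA was -0.35 (SE 0.34), with a 95% interval from -1.01 to 0.31.

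**Figure D3:**
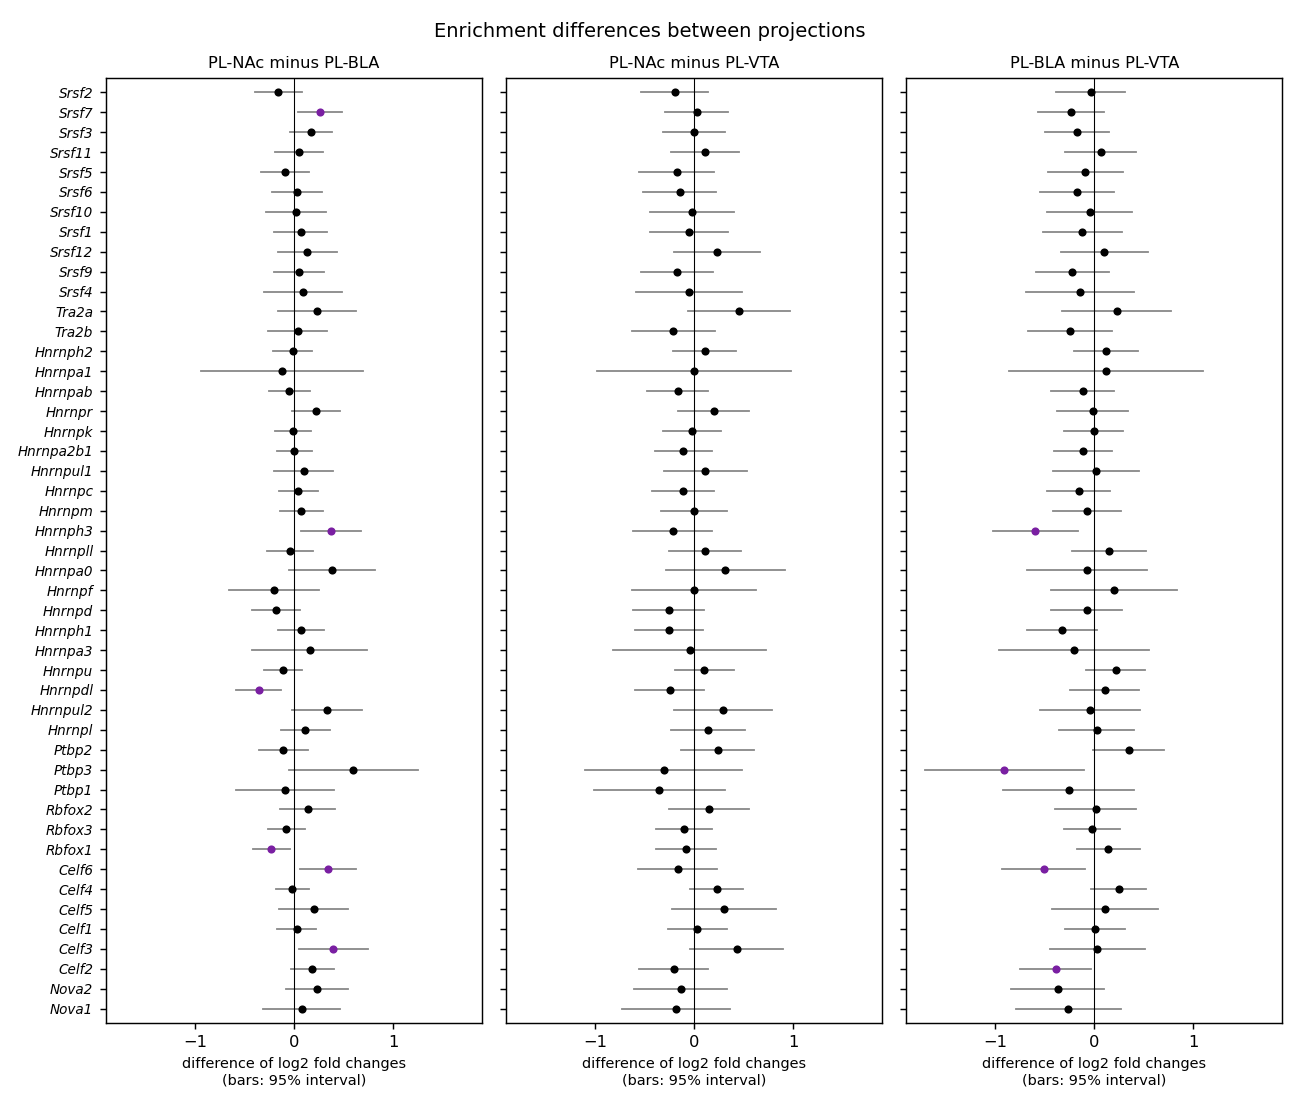
Difference of the log2 fold changes (x axis) for each of the 47 genes (y axis) in the 3 pairs of projections, with bars for the 95% interval. Purple points have an unadjusted p under 0.05, which are 6 in the left panel, 0 in the middle and 4 in the right, and none passed after adjustment.

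Over the 47 genes, log2 fold changes of the authors' deposited tables correlated between projections, with Pearson's r of 0.88 (NAc with BLA), 0.84 (NAc with VTA) and 0.80 (BLA with VTA). The same values over 15425 genes tested in all 3 were 0.91, 0.81 and 0.74. These are correlations across genes, which are not independent replicates, and the projections share no library. Of the 47 genes, 21 had a positive log2 fold change in each authors' deposited table, 11 a negative one in each, and 15 differed in sign.

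**Figure D4:**
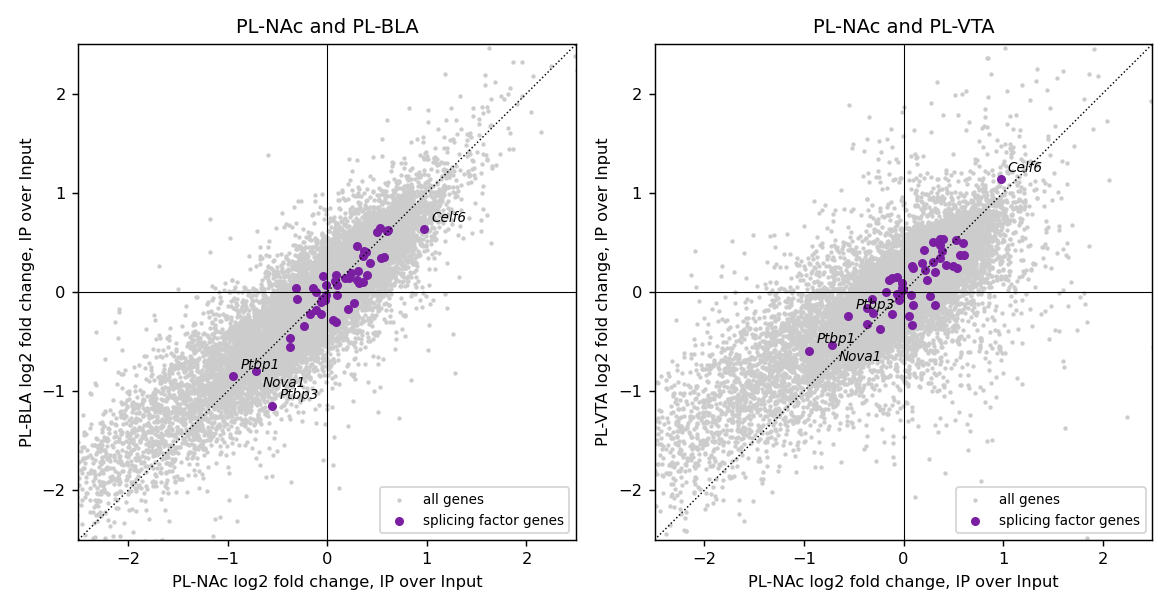
Log2 fold change of IP over Input in PL-NAc (x axis) against PL-BLA (left panel, y axis) and PL-VTA (right panel, y axis), for all genes in grey and the splicing factor genes in purple, with the dotted line marking equal values. Axes end at 2.5 in each direction, so that some grey genes lie outside. The purple points stay near the dotted line, and Celf6 at the upper right and Ptbp1, Ptbp3 and Nova1 at the lower left lie farthest out.

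The other parts of the splicing machinery were described with lists chosen with earlier results known. The background in PL-NAc, PL-BLA and PL-VTA was 21.4%, 20.8% and 11% higher and 21.7%, 20.2% and 10.5% lower over all genes tested. Among genes with a mean of at least 50 it was 31%, 29.2% and 13.7% higher and 24%, 22.8% and 11.8% lower. Of 37 core spliceosome genes tested, 22 were higher and 1 lower in PL-NAc, 21 higher and 1 lower in PL-BLA, and 11 higher and 0 lower in PL-VTA in the authors' deposited tables. The shares of these genes that were higher were 59.5%, 56.8% and 29.7%. Their median log2 fold changes were 0.47, 0.31 and 0.29 in the authors' deposited tables, beside 0.10, 0.07 and 0.12 for the splicing factors above. Prpf8, the scaffold of the catalytic core, had 1.52 (SE 0.10), 1.58 (SE 0.11) and 1.67 (SE 0.18) in PL-NAc, PL-BLA and PL-VTA in the authors' deposited tables. Snrpb, a subunit of the Sm ring, had 1.17 (SE 0.08), 1.02 (SE 0.07) and 0.86 (SE 0.14) in the authors' deposited tables. The lower gene in PL-NAc and PL-BLA was Snrnp70, the U1 protein that contacts SR proteins, at -0.37 (SE 0.10) and -0.28 (SE 0.11) in the authors' deposited tables.

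SR-related proteins moved both ways, with 6 of 18 higher and 3 lower in PL-NAc, 6 and 4 in PL-BLA, and 4 and 3 in PL-VTA in the authors' deposited tables. Beside the background above, their shares were 33.3%, 33.3% and 22.2% higher and 16.7%, 22.2% and 16.7% lower. Rsrp1, an arginine- and serine-rich protein, was lower at -0.71 (SE 0.06), -1.13 (SE 0.07) and -1.22 (SE 0.14) in the authors' deposited tables, and Rnps1, a component of the exon junction complex periphery, was higher at 0.61 (SE 0.08), 0.52 (SE 0.09) and 0.42 (SE 0.16). Of the 8 kinases that phosphorylate SR proteins, 3 were higher and 2 lower in PL-NAc and in PL-BLA, and 0 higher and 2 lower in PL-VTA, in the authors' deposited tables. As shares of the list, 37.5%, 37.5% and 0% were higher and 25% were lower in each projection. Clk1, a nuclear SR kinase whose unspliced transcript is retained in the nucleus, was lower at -0.95 (SE 0.12), -1.16 (SE 0.14) and -0.98 (SE 0.22) in the authors' deposited tables. Nuclear noncoding RNAs were lower in the same IPs, as given above, and the part of nuclear RNA in these values was not tested.

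Of 13 other tissue-restricted regulators tested, 5 were higher and 4 lower in PL-NAc and in PL-BLA, and 3 higher and 2 lower in PL-VTA, in the authors' deposited tables. Beside the background above, their shares were 38.5%, 38.5% and 23.1% higher and 30.8%, 30.8% and 15.4% lower. Qk, a regulator of glial splicing and myelination, was lower at -2.18 (SE 0.08), -1.91 (SE 0.20) and -1.67 (SE 0.15), and Elavl4, the neuronal protein HuD, was higher at 0.93 (SE 0.07), 0.86 (SE 0.09) and 1.01 (SE 0.14) in the authors' deposited tables. Among 13 other nuclear RNA-binding proteins, 5 were higher and 2 lower in PL-NAc, 4 and 2 in PL-BLA, and 2 and 2 in PL-VTA in the authors' deposited tables. As shares, 38.5%, 30.8% and 15.4% were higher and 15.4% were lower in each projection. Ewsr1 was higher at 0.51 (SE 0.06), 0.54 (SE 0.07) and 0.53 (SE 0.14), and Tia1, which promotes use of weak 5′ splice sites, was lower at -0.49 (SE 0.12), -0.57 (SE 0.12) and -0.75 (SE 0.21) in the authors' deposited tables.

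NMD bears on these genes because many of them have annotated NMD transcripts. In GENCODE M21, 27 of the 47 genes, or 57.4%, have at least 1 transcript annotated as a target of NMD, against 27.6% of 13672 protein-coding genes tested in all 3 projections. A transcript with a retained intron is annotated for 34 of them, or 72.3%, against 57.2%. The tables hold 1 value a gene, so the isoforms cannot be told apart here. Of 14 NMD factors, 7 were higher and 1 lower in PL-NAc and in PL-BLA, and 1 higher and 1 lower in PL-VTA, in the authors' deposited tables. Beside the background above, their shares were 50%, 50% and 7.14% higher and 7.14% lower in each projection. The lower one was Smg1, the kinase that phosphorylates UPF1, at -0.96 (SE 0.19), -1.17 (SE 0.20) and -0.86 (SE 0.31) in the authors' deposited tables.

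**Figure D5:**
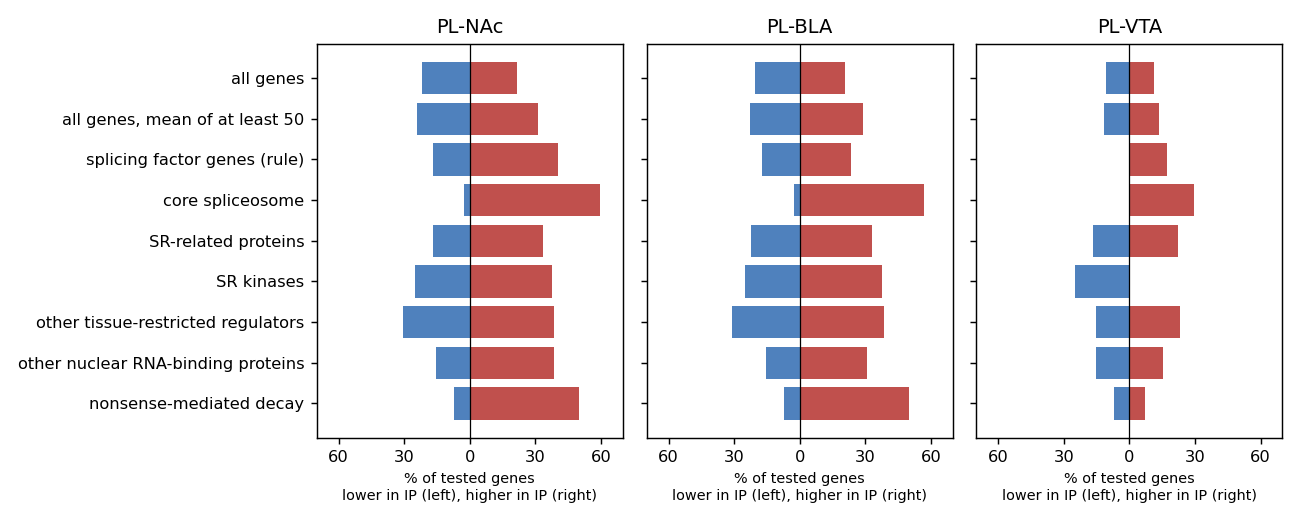
Percentage of tested genes that were lower in the IP (blue, drawn to the left) or higher (red, drawn to the right) at an adjusted p under 0.05, for all genes and each gene list (y axis) in the 3 projections. Core spliceosome genes reach 59.5% higher in PL-NAc and 56.8% in PL-BLA, and the splicing factor genes 40.4% and 23.4%.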

How the data were processed

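RNA sequencing of 16 samples was used as 3 comparison tables, 1 for each projection. Libraries were made with SMARTer Ultra Low RNA and Nextera XT kits, per the labels' protocols. The submitters' processing notes name STAR 2.3, featureCounts, DESeq2 and mm10 (GRCm38). Not given in the sources used here: annotation release, strand and multi-mapping settings, and the model. For each gene, the signal is the authors' mean normalized count over both groups, per the file headers. The log2 fold changes and standard errors are those of the authors, per the file headers, and appear shrunken toward 0, which understates the change of low genes. The score is the authors' Wald statistic, and the p-value and adjusted p-value are the deposited ones. The statistic and the adjusted p-value were recomputed from the other deposited values and matched. The adjusted p is blank below a mean of 1.82 (PL-NAc), 2.39 (PL-BLA) and 8.58 (PL-VTA).

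The plan named a count model in case counts per library were present. The tables hold none, so the authors' test was used. A gene was called at an adjusted p under 0.05. Differences between projections were tested with a two-sided Wald z on the deposited values, over 21981, 21559 and 21613 genes, in Python 3.11.15 with scipy 1.17.1 and statsmodels 0.14.6, tested on simulated data first. Gene overlaps, 50-base words and coding sequences came from GENCODE M21, and promoters from RefSeq. Members and lists were chosen with earlier results of these data known. Any gene matching the symbol rule could be named, and from other lists at most the 2 with the lowest p in each direction and projection. Alternatives were a stricter p, a mean of at least 50, adjustment over every gene with a p, centring on the median, a 1.5-fold minimum and leaving out genes with shared 50-base words.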

Additional observations from a re-analysis of the deposited data

How the results depend on the processing

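No called gene changed direction under any alternative, but this was fixed in advance. Only centring alters a log2 fold change, by 0.059 (PL-NAc), 0.055 (PL-BLA) and 0.065 (PL-VTA), less than the size of any called value. The 3 pairs of projections stayed at 0 called genes under those run. For the pairs, a stricter p, a 1.5-fold minimum and leaving out genes could only keep 0 at 0. An adjusted p under 0.01 left 5 lower genes in PL-NAc, and 5 genes in PL-VTA, all higher. A minimum of 1.5-fold left 5 genes in PL-NAc (3 higher, 2 lower), 7 in PL-BLA (4 higher, 3 lower) and 1 higher gene in PL-VTA, Celf6. Centring on the median of genes with a mean of at least 50 gave 5 higher genes and 1 lower in PL-VTA, where Celf4, Hnrnpk and Nova2 were lost. It also ended the calls of Hnrnpc, Hnrnpm, Srsf11 and Tra2a in PL-NAc and of Celf5 and Rbfox2 in PL-BLA, and added Hnrnpd, Hnrnpu and Srsf9 as lower in PL-NAc and Hnrnph1 and Hnrnpul2 in PL-BLA. Keeping the 30 genes with under 10% of their 50-base words in other genes, an alternative chosen after seeing the data, left 16 genes in PL-NAc (10 higher), 12 in PL-BLA (6 higher) and 3 higher genes in PL-VTA, which has fewer genes by construction. The median log2 fold change over these genes lay between 0.01 (PL-BLA, centred) and 0.12 (PL-VTA, as reported). A mean of at least 50 changed no call of these genes, and adjusting over every gene with a p lost Ptbp3 in PL-NAc, Celf3 and Srsf9 in PL-BLA and Nova2 in PL-VTA. No paired analysis was possible because the tables hold no per-library values, and for the same reason no sample could be left out in turn and another normalization was not run. With 2 samples a group, PL-VTA limits what can be resolved.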
